A study of Rattus norvegicus with 12 samples.

Results

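Mitoplasts were compared with crude mitochondria from rat skeletal muscle by sequencing the RNA that each preparation retained after RNase treatment. The comparison takes 3 mitoplast libraries (mitoplast_RNase) and 3 crude libraries (crude_RNase), chosen by their titles, which are 6 of the 12 libraries of the study, and it was made over all genes. All material came from 1 wild-type male Wistar Kyoto rat aged 14 weeks, whose hindlimb muscle (gastrocnemius in the design text) was homogenised and pooled. The crude mitochondria were pelleted from an aliquot of that homogenate by differential centrifugation. The mitoplasts were derived from mitochondria captured from other aliquots with antibody-coated magnetic beads. Both groups received RNase A, which digests RNA that it can reach, and neither received proteinase K. The 6 other libraries held captured mitochondria treated with RNase A (IP_RNase) or with RNase A and proteinase K (IP_RNase_ProK), and they enter the model to share its estimate of the spread and are set beside the mitoplasts at the end. The groups differ in bead capture, in the removal of the outer membrane and in the RNA put into the library, which was 6.3 ng for crude mitochondria and 40 ng for mitoplasts. Between these groups alone, the effects of these steps cannot be told apart. The IP_RNase libraries share bead capture and the 40 ng with the mitoplasts, and their counts of called genes are given at the end. Because the aliquots shared 1 animal and 1 homogenate, every error and p-value covers no more than the spread among these libraries, which may be technical.

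Mitochondria have an outer and an inner membrane, and their own DNA is transcribed in the matrix, inside the inner membrane. That DNA encodes a small set of respiratory chain subunits and the rRNAs and tRNAs that translate them, while all other mitochondrial proteins are made from nuclear genes, mostly on cytosolic ribosomes. A mitoplast is a mitochondrion whose outer membrane has been removed, so that molecules attached to the outer surface are lost and the matrix is kept. Crude mitochondrial pellets are known to carry along endoplasmic reticulum, ribosomes and, in muscle, fragments of the contractile apparatus. RNase A acts on RNA outside an intact membrane.

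Total counts were 3975741, 4210404 and 3754889 in mitoplast libraries 1 to 3, and 6583452, 7123045 and 6764447 in crude libraries 1 to 3. Between 95.8% and 96.7% of the genes in the table had at least 1 count in each of these libraries. Olfactory receptor genes, known chiefly for odour sensing in the nose, had a median of 39 to 47 counts per mitoplast library and 31 to 35 per crude library. They serve below as a measure of the count level that a gene family known chiefly from another tissue reached in each library. The median nuclear gene had 79 to 89 counts per mitoplast library and 63 to 78 per crude library. Replicate pairs of mitoplast libraries, which were also shallower, had a chi-square per degree of freedom between 1.31 and 1.93, and crude pairs between 4.69 and 12.9, so no pair agreed within sampling noise.

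RNA of the mitochondrial chromosome made up a far smaller share of the mitoplast libraries than of the crude libraries. It took 3.94%, 3.39% and 2.52% of the counts in mitoplast libraries 1 to 3, and 41.2%, 53.3% and 54.0% in crude libraries 1 to 3. The means were 3.28% ± 0.719 and 49.5% ± 7.18 (SD, n = 3 each), the ranges did not overlap, and the difference was -46.2 percentage points. The two-sided exact permutation test gave p = 0.1, the smallest that 3 libraries against 3 can give (0.2 after Benjamini-Hochberg adjustment over 2 tests). Nuclear protein-coding genes moved the other way, with 80.2%, 80.7% and 81.9% of the counts in mitoplast libraries and 47.9%, 37.4% and 36.9% in crude libraries. Genes for cytosolic rRNA and for the RNA of the signal recognition particle (SRP), which brings ribosomes to the endoplasmic reticulum, took 0.0834% ± 0.00719 in mitoplasts and 2.37% ± 0.0516 in crude mitochondria (SD, n = 3 each). The libraries were rRNA-depleted from unlike amounts of RNA. How complete the depletion was in each group was not measured, so rRNA counts may reflect it as well. Olfactory receptor genes took 1.49% ± 0.0508 and 0.652% ± 0.0523 (SD, n = 3 each). The libraries titled mitoplast thus held less RNA of the matrix genome per count than those titled crude, and no measurement here reports how complete the removal of the outer membrane was.

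**Figure D1:**
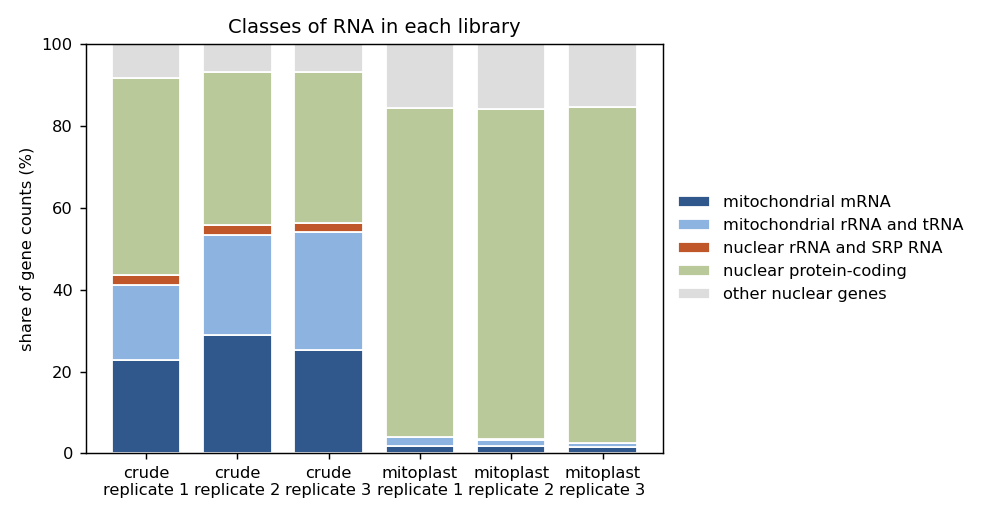
Share of all gene counts (%, vertical axis) taken by 5 classes of RNA in each of the 6 libraries. Mitochondrial mRNA together with mitochondrial rRNA and tRNA fills 41.2% to 54.0% of the crude libraries and 2.52% to 3.94% of the mitoplast libraries.

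Counts were then tested gene by gene with edgeR's quasi-likelihood F test in 1 model of the 12 libraries, and p-values were adjusted by Benjamini-Hochberg over the 26483 genes tested. Fold changes are given as log2 of mitoplast over crude with a standard error (SE), and levels as counts per 1000000 (CPM). Both use TMM scaling, which centres the fold changes on the bulk of genes, so that the median gene had a log2 fold change of 0.0046. At an adjusted p under 0.05, 1467 genes differed (5.54% of those tested). Of these, 1203 were lower in mitoplasts (4.54%) and 264 were higher (0.997%). The CPM ranges of the groups did not overlap for 5027 genes (19%). The lower genes had the larger changes, with 331 of them and 30 of the higher genes beyond a log2 change of 1. The number of higher genes was 543 without crude library 1, and 167, 148 and 166 without mitoplast libraries 1, 2 and 3. The split also rests on the scaling. When libraries were scaled to the olfactory receptor genes, 53 genes were higher and 1772 lower, and the median gene moved to -0.11. When they were scaled to their total counts, 25223 genes were higher and 179 lower, and the median gene moved to 1.07. When they were scaled to the 13 mitochondrial mRNAs, 26456 were higher and 9 lower, and the median gene moved to 4.93. Lower and higher below are relative to the median gene, and for each group of genes the median under library size scaling and under mitochondrial mRNA scaling is given with it.

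Lower calls were more frequent among strongly counted nuclear genes. Among the 6452 nuclear genes whose mean level was under the median olfactory receptor level of 8.93 CPM, 0.651% were lower in mitoplasts. The share was 5.63% at 2 to 4 times that level (7408 genes), 8.07% at 8 to 16 times (1710 genes) and 18.9% at 16 to 64 times (280 genes). Above 64 times it was 35.0%, but of 20 genes only. The mean level includes the crude libraries, so high crude counts both raise a gene's level and make it lower in mitoplasts. Genes with few counts also pass such a test less often. The part of either in this trend was not tested. Of 17942 nuclear protein-coding genes, 1043 were lower and 140 higher. Of 5505 genes without a name in the table, 73 were lower and 103 higher. Over all 26483 genes tested, 1203 (4.54%) were lower and 264 (0.997%) higher.

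**Figure D2:**
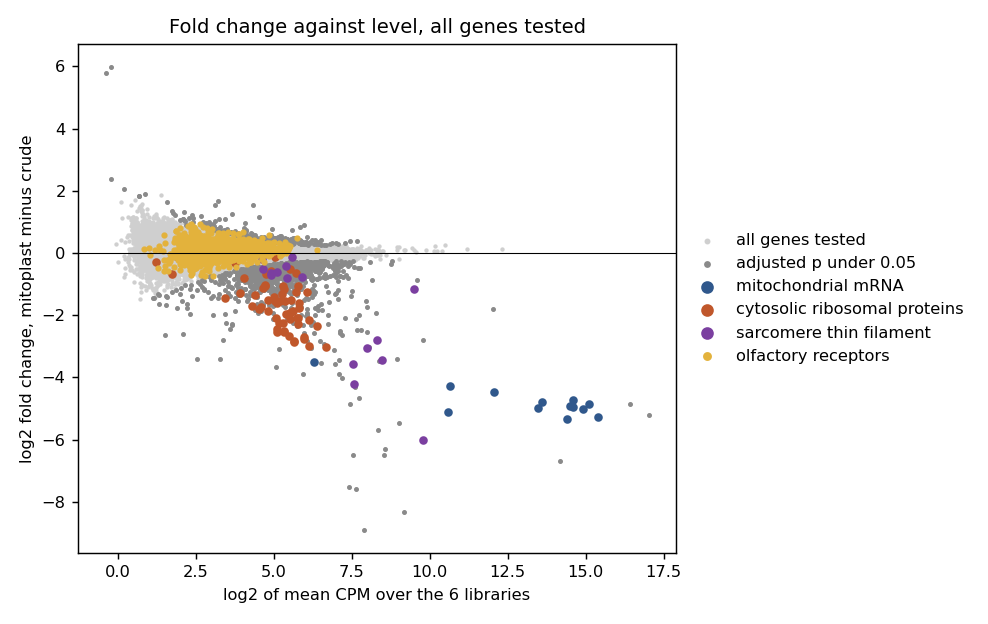
Log2 fold change of mitoplast over crude under TMM scaling (vertical axis) against log2 of the mean CPM over the 6 libraries (horizontal axis), with 1 point per gene tested. Mitochondrial mRNAs lie between -5.33 and -3.51, cytosolic ribosomal protein genes between -3.03 and 0.11, and olfactory receptor genes around their median of 0.10. Under library size scaling every point moves up by about 1.07, and under mitochondrial mRNA scaling by about 4.93.

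All 13 mitochondrial mRNAs fell in mitoplasts, by a median log2 change of -4.93 (-3.83 under library size scaling and, since they are then the reference, 0.053 under mitochondrial mRNA scaling). Mt-co1, which encodes the catalytic subunit of cytochrome c oxidase, had 12111, 11401 and 8069 counts in mitoplasts and 281616, 368760 and 327942 in crude mitochondria. Its log2 fold change was -5.28 ± 0.275 (SE, adjusted p = 8.22e-23), and every mitoplast library lay far below every crude library. Mt-co3, another core subunit of that enzyme, had the lowest value of the 13 at -5.33 ± 0.233 (SE, adjusted p = 3.68e-26). Mt-cyb, the mitochondrial subunit of complex III, fell by 5.00 on the log2 scale, and the complex I subunit Mt-nd5 fell by 4.86. Mt-atp8, a small subunit of ATP synthase, had the smallest change, at -3.51 ± 0.15 (SE, adjusted p = 1.31e-26). It had 75, 62 and 46 counts in mitoplasts and 558, 633 and 498 in crude mitochondria, and its mitoplast counts were close to the median olfactory receptor gene of the same libraries, at 44, 47 and 39. The part of this count level in the smaller change of Mt-atp8 was not tested.

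The makeup of the mitochondrial mRNA pool was compared as each mRNA's share of the 13, which does not depend on scaling between libraries. For 8 of the 13 the shares did not overlap between groups, each with an exact permutation p of 0.1 (0.1625 after Benjamini-Hochberg adjustment over the 13), the smallest that 3 against 3 libraries can give. Mt-nd4l, a small complex I subunit, took 1.11%, 1.09% and 1.02% of the pool in mitoplasts and 0.675%, 0.693% and 0.626% in crude mitochondria, a ratio of means of 1.62. Mt-nd6, the only mRNA encoded by the light strand, took 2.45%, 2.81% and 2.31% against 1.63%, 1.81% and 1.91%, a ratio of 1.42. Mt-atp8 took 0.1%, 0.08% and 0.0813% against 0.0370%, 0.0308% and 0.0292%, a ratio of 2.69. All 3 took more of the pool in each mitoplast library than in any crude library. The 75, 62 and 46 mitoplast counts of Mt-atp8 were close to the median olfactory receptor gene (44, 47 and 39). The part of this count level in its larger share was not tested. Mt-nd2, Mt-atp6 and Mt-nd5 were also above the crude range, with ratios of 1.19, 1.13 and 1.09. Mt-co1 and Mt-co3 were below it. Mt-co1 took 16.2%, 14.7% and 14.3% of the pool in mitoplasts and 18.7%, 18% and 19.2% in crude mitochondria, and Mt-co3 had a ratio of 0.781. Mt-nd1, Mt-nd3, Mt-nd4, Mt-co2 and Mt-cyb overlapped between the groups. The genes of Mt-atp8 and Mt-atp6, and those of Mt-nd4l and Mt-nd4, overlap on the chromosome, so reads of 1 partner may have been counted for the other.

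**Figure D3:**
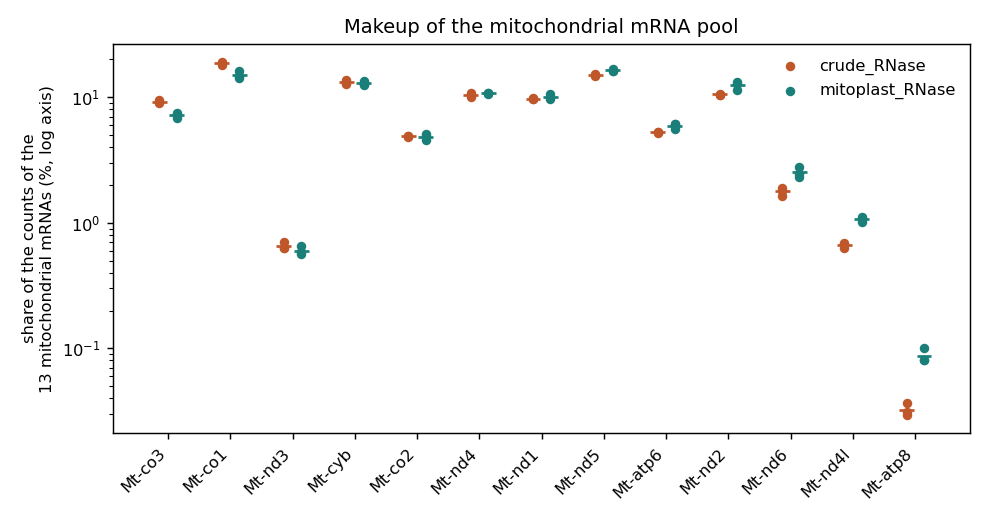
Share of the counts of the 13 mitochondrial mRNAs (%, log axis) taken by each mRNA, with 1 point per library and a bar at the mean of 3. Mt-atp8, Mt-nd4l and Mt-nd6 lie higher in mitoplasts, Mt-co1 and Mt-co3 lie lower, and the other shares differ by ratios of 0.917 to 1.19. The mitoplast counts of Mt-atp8 were close to those of the median olfactory receptor gene.

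Of 24 mitochondrial rRNA and tRNA genes in the table, 4 had enough counts to be tested, and all 4 were lower in mitoplasts, with a median of -5.04 (-3.93 under library size scaling and -0.076 under mitochondrial mRNA scaling). The table does not name these genes. The 2 most counted were taken as the rRNAs of the mitochondrial ribosome. ENSRNOG00000043866 had 43473, 35340 and 21502 counts in mitoplasts and 706067, 1056385 and 1182944 in crude mitochondria, a log2 fold change of -5.22 ± 0.420 (SE, adjusted p = 5.52e-15). ENSRNOG00000030478 fell by 4.87 on the log2 scale. A weaker gene of this class, ENSRNOG00000029145, had 62, 76 and 37 counts against 1185, 2793 and 3172, a change of -5.70. The remaining one, ENSRNOG00000032609, had 24, 26 and 16 counts against 49, 46 and 44, a change of -1.37, and was named after its values were seen. The ratio of mitochondrial rRNA and tRNA counts to mitochondrial mRNA counts was 1.09, 0.841 and 0.669 in mitoplasts and 0.798, 0.851 and 1.14 in crude mitochondria. The groups overlapped, and the mean log2 ratios differed by -0.11 (two-sided exact permutation p = 0.7, also 0.7 after adjustment over 2 tests). The sign of that difference turned without mitoplast library 3, to 0.061, and without crude library 3, to 0.044. The part of rRNA depletion in the rRNA counts and in this ratio was not tested.

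Cytosolic rRNA and SRP RNA held the lowest single fold changes of any list. Of 54 genes tested of 63 in the table, 15 fell and 39 did not pass, and the median was -0.36 (0.71 under library size scaling and 4.55 under mitochondrial mRNA scaling). The spread within the group was wide, from -8.34 to 1.35. The 18S rRNA gene ENSRNOG00000062337 had 19, 24 and 8 counts in mitoplasts and 2924, 5644 and 4607 in crude mitochondria, a log2 fold change of -8.34 ± 0.216 (SE, adjusted p = 9.07e-37). A more strongly counted 18S gene, ENSRNOG00000068307, had 1699, 1576 and 1801 counts against 142050, 145660 and 137485, a change of -6.69, and was named after its values were seen. Rn7sl1, the RNA scaffold of SRP, had 6, 10 and 13 counts in mitoplasts and 320, 122 and 3857 in crude mitochondria. Its log2 fold change of -7.58 ± 0.761 (SE, adjusted p = 1.39e-11) leaned on crude library 3, without which it was -4.70 (adjusted p = 4.82e-21). A further pair of SRP RNA genes, ENSRNOG00000055825 and ENSRNOG00000048993, had 2540 to 3528 and 2370 to 3316 counts in crude libraries and no more than 62 and 66 in mitoplasts. SRP and rRNA genes exist in near-identical copies, so the division of reads among them is uncertain.

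Of the 15 rRNA and SRP RNA genes that fell, 7 were lower whichever scaling was used, and 8 were not. In all, 9 genes were lower in mitoplasts at an adjusted p under 0.05 under all 5 scalings tried, including the scaling to mitochondrial mRNA. They were both 18S rRNA genes named above, Rn7sl1, 4 other SRP RNA genes, skeletal actin Acta1 and the unnamed gene ENSRNOG00000065674. The last had 4, 7 and 3 counts in mitoplasts and 2554, 1405 and 1693 in crude mitochondria, a log2 fold change of -8.90 ± 0.177 (SE, adjusted p = 1.64e-41). Under mitochondrial mRNA scaling it was still lower, by -4.07. The count of 9 genes was made after the values were seen.

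Cytosolic ribosomal protein genes fell together. Of 62 tested (64 in the table), 54 fell and 8 missed the threshold, at a median of -1.58 (-0.50 under library size scaling and 3.38 under mitochondrial mRNA scaling). They took 0.138% ± 0.0040 of nuclear counts in mitoplasts and 0.420% ± 0.0216 in crude mitochondria (SD, n = 3 each). Rplp0, which forms the stalk of the large ribosomal subunit, had 116, 112 and 94 counts in mitoplasts and 766, 689 and 678 in crude mitochondria, a log2 fold change of -3.03 ± 0.0904 (SE, adjusted p = 7.83e-34). Rpl5, which binds 5S rRNA in the large subunit, changed by -2.98, and Rpl19 by -2.77. Of 28 translation factor genes, 20 passed as lower and 8 did not pass, the median being -0.60 (0.48 under library size scaling and 4.36 under mitochondrial mRNA scaling). Eef2, the factor that moves the ribosome along the mRNA, had 53.9 to 61.0 CPM in mitoplasts and 450 to 491 CPM in crude mitochondria, and its log2 fold change was -3.02. Pabpc1, which binds the poly(A) tails of mRNAs, had -2.0, and Eef1g, a subunit of the elongation factor 1 complex, had -1.47. No mitoplast library reached a crude library for any of these 6 named genes. Rplp0, Rpl5, Rpl19, Pabpc1 and Eef1g had mitoplast means of 15.8 to 36.1 CPM, and Eef2 had 58.2 CPM. Of these, only Eef2 lay above the 99th percentile of olfactory receptor genes in the mitoplast libraries (42.2 to 43.0 CPM).

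Most genes of the contractile apparatus also fell. Of 16 thin filament genes, 14 fell while 2 did not pass, at a median of -0.79 (0.28 under library size scaling and 4.16 under mitochondrial mRNA scaling). Acta1, the actin of the skeletal muscle thin filament, had 130, 153 and 108 counts in mitoplasts and 6842, 7102 and 6531 in crude mitochondria, or 27.0 ± 3.21 and 1755 ± 195 CPM (SD, n = 3 each). Its log2 fold change of -6.02 ± 0.121 (SE, adjusted p = 1.64e-41) was the lowest of the nuclear protein-coding genes in the lists. Its mitoplast level lay under the 99th percentile of olfactory receptor genes in the mitoplast libraries, which was 42.2 to 43.0 CPM. The mitoplast means of Tnnc2, Tnni2, Mylpf, Myl1 and Tcap, described next, were 14.7 to 28.5 CPM and lay under it too. Tnnc2 and Tnni2, the calcium-binding and inhibitory subunits of fast troponin, changed by -4.2 and -3.58. Of 33 genes of the thick filament, titin and Z disc, 27 fell and 6 missed the threshold, at a median of -1.06 (0.015 under library size scaling and 3.88 under mitochondrial mRNA scaling). The fast myosin light chain Mylpf had 84, 76 and 71 counts against 1631, 1572 and 1568, a change of -4.67. Another, Myl1, had -4.32, and Tcap, which caps titin at the Z disc, had -3.53. Ttn, the giant spring protein titin and the most counted member of this group, was named after its values were seen. It had 8262, 13134 and 6210 counts in mitoplasts and 9936, 52393 and 11829 in crude mitochondria, and in CPM the groups overlapped. Its change of -1.79 was -0.55 (adjusted p = 0.0118) without crude library 2, and DESeq2 gave an adjusted p of 0.116.

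Many genes of the membranes and sugar metabolism of the fibre fell as well. Of 19 genes of the sarcoplasmic reticulum, T-tubule and calcium buffering, 11 passed as lower and 8 did not pass, the median being -0.35 (0.73 under library size scaling and 4.6 under mitochondrial mRNA scaling). Casq1, the calcium store protein of the reticulum, had 37.3 to 38.2 CPM in mitoplasts and 127 to 143 CPM in crude mitochondria, a change of -1.83. Triadin (Trdn) and Hrc, which sit with the calcium release channel, changed by -1.0 and -0.95. Of 24 genes of glycolysis, glycogen use and creatine kinase, 19 fell while 5 did not pass, at a median of -0.74 (0.33 under library size scaling and 4.2 under mitochondrial mRNA scaling). Ckm, the cytosolic muscle creatine kinase, had 114, 109 and 108 counts in mitoplasts and 1067, 1017 and 866 in crude mitochondria, a change of -3.45 ± 0.0932 (SE, adjusted p = 7.16e-36). Pgam2, the muscle phosphoglycerate mutase, had -3.06, and Pygm, the muscle glycogen phosphorylase, had -2.48.

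Nuclear genes for mitochondrial proteins were lower to a differing extent from list to list. Of 13 nuclear ATP synthase genes, 12 fell and 1 missed the threshold, at a median of -1.09 (-0.016 under library size scaling and 3.85 under mitochondrial mRNA scaling). Atp5f1b, the catalytic beta subunit, had 115, 103 and 97 counts in mitoplasts and 604, 646 and 562 in crude mitochondria, a log2 fold change of -2.83 ± 0.0993 (SE, adjusted p = 1.59e-30). Its partner Atp5f1a had -1.99. Of 22 nuclear genes of complexes II to IV and cytochrome c, 17 passed as lower and 5 did not pass, the median being -0.94 (0.12 under library size scaling and 3.98 under mitochondrial mRNA scaling). Cox4i1 and Cox6c, structural subunits of cytochrome c oxidase, had -1.78 and -1.92, and Uqcrfs1, the iron-sulfur protein of complex III, had -1.87. Of complex I genes, 12 of 31 tested (33 in the table) fell while 19 did not pass, at a median of -0.50 (0.59 under library size scaling and 4.44 under mitochondrial mRNA scaling). Ndufa6, an accessory subunit, had 34, 35 and 49 counts against 95, 88 and 64, a change of -1.36. Of 37 genes of the TCA cycle and fatty acid oxidation, 24 fell and 13 missed the threshold, at a median of -0.54 (0.54 under library size scaling and 4.43 under mitochondrial mRNA scaling). Pdk4, the kinase that switches off pyruvate dehydrogenase, changed by -1.51, and Pdha1, a subunit of that enzyme, by -1.14. Every gene named in this paragraph had a mitoplast mean of 8.24 to 32.6 CPM. The 99th percentile of olfactory receptor genes in the mitoplast libraries was 42.2 to 43.0 CPM, above all of these means. The part of this low level in the differing extents was not tested. These groups were not tested against each other.

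Among carriers and outer membrane proteins, 11 of 31 genes passed as lower and 20 did not pass, the median being -0.30 (0.78 under library size scaling and 4.65 under mitochondrial mRNA scaling). Slc25a4, the ADP/ATP carrier of heart and muscle, had 77, 96 and 72 counts in mitoplasts and 1122, 1150 and 952 in crude mitochondria. Its log2 fold change of -4.02 ± 0.102 (SE, adjusted p = 4.29e-37) was the lowest of any nuclear gene for a mitochondrial protein in the lists. Ckmt2, the mitochondrial creatine kinase of muscle, had -1.44, and Vdac2, a pore of the outer membrane, had -0.80. Of 29 genes of inner membrane import and matrix chaperones, 7 fell while 22 did not pass, at a median of -0.27 (0.81 under library size scaling and 4.68 under mitochondrial mRNA scaling). Chchd3, which shapes the cristae, had -1.11, Timm23, the channel of the inner membrane translocase, had -0.87, and the matrix chaperone Hspa9 had -0.64. Of mitochondrial ribosomal protein genes, 6 of 70 tested (71 in the table) fell and 64 missed the threshold, at a median of -0.20 (0.87 under library size scaling and 4.74 under mitochondrial mRNA scaling). The share called lower, 8.57%, stands beside 4.54% of all genes tested, and DESeq2 called 2 of the 70. Mrps25 had -0.70, and the calls of Mrpl3 (-0.47) and Mrps5 (-0.44) were lost when single libraries were left out. Of 31 genes that maintain mitochondrial DNA and RNA, 2 passed as lower and 29 did not pass, the median being -0.11 (0.96 under library size scaling and 4.82 under mitochondrial mRNA scaling). Their share of 6.45% is near the 4.54% of all genes tested. They were Lrpprc, which stabilises mitochondrial mRNAs, at -0.41, and the elongation factor Tufm, at -0.51, whose call was lost without crude library 3 (adjusted p = 0.0623). Gfm1, another elongation factor, had -0.20 (adjusted p = 0.373).

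**Figure D4:**
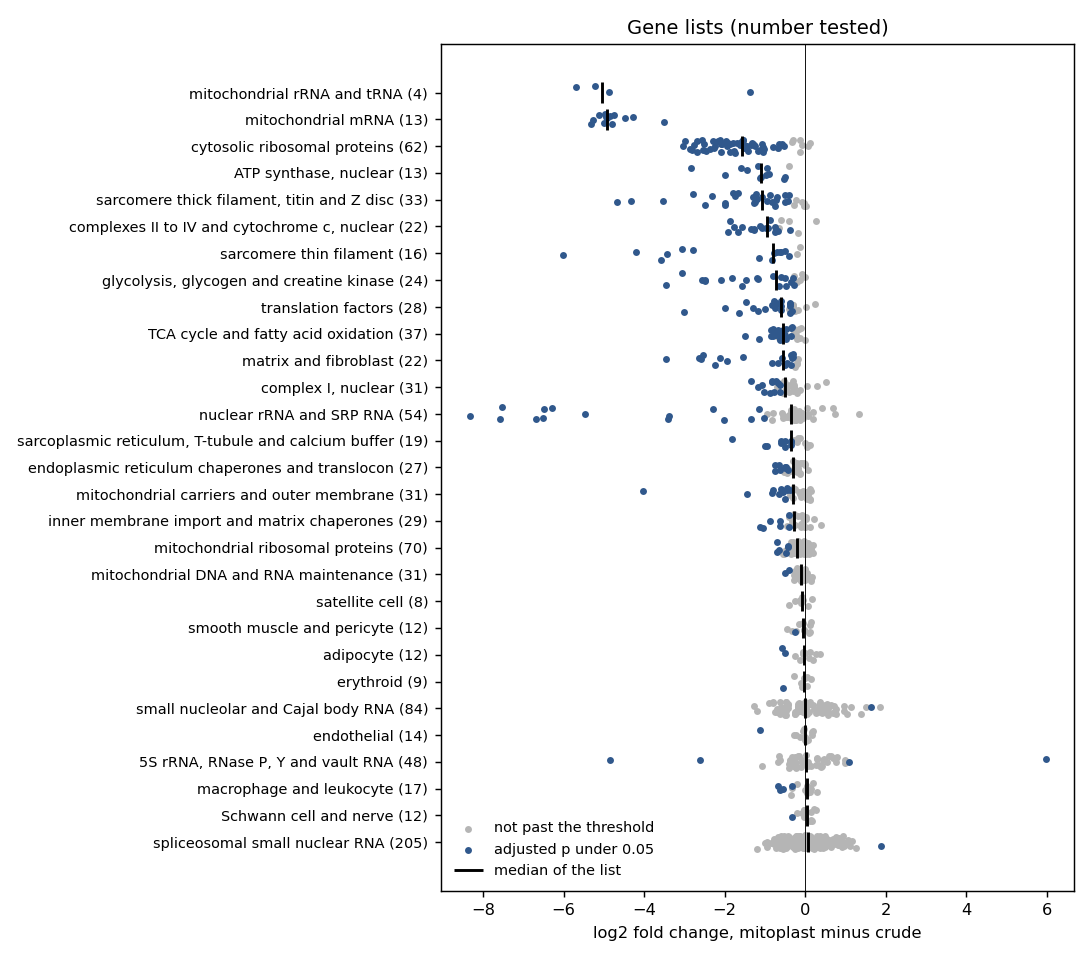
Log2 fold change of mitoplast over crude under TMM scaling (horizontal axis) for each tested gene of 29 lists (vertical axis, number tested in brackets), with bars at the list medians. Medians run from -5.04 for mitochondrial rRNA and tRNA to 0.07 for spliceosomal small nuclear RNA, and the point near 6 is a 5S rRNA copy without counts in crude libraries, whose fitted value depends on the prior count. Under library size scaling the medians of the nuclear lists turn positive, except those of cytosolic ribosomal proteins and ATP synthase, and under mitochondrial mRNA scaling all nuclear list medians are positive.

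Few small noncoding RNAs of the nuclear genome passed the test. In the 3 lists below, in order, 0.488%, 1.19% and 4.17% of tested members were higher, beside 0.997% of all genes tested. The shares that were lower were 0%, 0% and 4.17%, beside 4.54%. Tested members had a median of 9.33, 10.1 and 11.9 counts per library in these lists, which leaves little room for calls. Of 205 tested genes and copies of spliceosomal small nuclear RNA, out of 1474 in the table, 1 rose and 204 did not pass, at a median of 0.070 (-0.042 under olfactory receptor scaling, 1.13 under library size scaling and 4.94 under mitochondrial mRNA scaling). The one that rose was a U2 copy (ENSRNOG00000052561) with 16, 11 and 15 counts in mitoplasts and 3, 3 and 3 in crude mitochondria. Of 84 tested small nucleolar and Cajal body RNAs, out of 347, 1 rose and 83 did not pass, at a median of -0.0036 (1.05 under library size scaling and 4.88 under mitochondrial mRNA scaling). It was a SNORD115 copy (ENSRNOG00000067371) with 24, 22 and 19 counts against 8, 7 and 2, and its call was lost without crude library 3 (adjusted p = 0.0519). The group of 5S rRNA, RNase P, Y and vault RNA held 48 tested genes of 226, of which 2 rose, 2 fell while 44 did not pass, at a median of 0.018 (-0.10 under olfactory receptor scaling, 1.07 under library size scaling and 4.88 under mitochondrial mRNA scaling). Rpph1, named for the RNA of RNase P, which trims tRNA precursors, had 44, 76 and 49 counts in mitoplasts and 1987, 1071 and 995 in crude mitochondria. Its log2 fold change was -4.85 ± 0.160 (SE, adjusted p = 8.69e-32), and 0.0066 under mitochondrial mRNA scaling. A RefSeq gene table lists this symbol with the RNase MRP RNA type, so which of these related RNAs the gene holds is not settled. The other 3 were named after their values were seen. A 5S rRNA copy (ENSRNOG00000069035) had 10, 9 and 6 counts in mitoplasts and 0 in each crude library. A Y RNA copy (ENSRNOG00000060430) had 12, 3 and 2 counts against 41, 18 and 28, a change of -2.62 that was -3.76 without mitoplast library 1. A copy of nuclear RNase P RNA (ENSRNOG00000068873) had 31, 29 and 24 counts against 6, 18 and 8, and its call was lost in most settings that left out 1 library. All of these counts but those of Rpph1 are low, and DESeq2 gave the U2, 5S and Y RNA copies no adjusted p.

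Among markers of other cells of muscle tissue, those of matrix and fibroblasts fell and the others mostly did not pass. Of 22 matrix and fibroblast genes, 18 fell and 4 missed the threshold, at a median of -0.54 (0.53 under library size scaling and 4.40 under mitochondrial mRNA scaling). Their summed share of nuclear counts was 0.218% to 0.228% in mitoplasts and 0.462% to 0.468% in crude mitochondria. Col3a1, a fibrillar collagen chain, had 280, 296 and 231 counts in mitoplasts and 2568, 2389 and 2242 in crude mitochondria, a log2 fold change of -3.46 ± 0.0833 (SE, adjusted p = 5.38e-38). Sparc, a collagen-binding matrix protein, had -2.63, and the actin-severing protein gelsolin (Gsn), which muscle also makes, had -2.53. Fewer cells or fragments of a type and less RNA in each cannot be told apart in such bulk samples.

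In the endothelial, smooth muscle and Schwann cell lists the shares called lower were 7.14%, 8.33% and 8.33%, 1 gene each, which is near the 4.54% of all genes tested. The shares were 11.1%, 16.7% and 23.5% in the erythroid, adipocyte and macrophage lists. Of endothelial genes 1 of 14 fell, which was the fatty acid carrier Fabp4 at -1.13, and the median was -0.0024 (1.06 under library size scaling and 4.92 under mitochondrial mRNA scaling). Tie1, an endothelial receptor, had 394, 374 and 400 counts against 373, 234 and 241, and a change of 0.18 (adjusted p = 0.328). It would have passed as higher without crude library 1 (adjusted p = 0.0232). Of 17 macrophage and leukocyte genes, 4 passed as lower and 13 did not pass, the median being 0.043 (-0.074 under olfactory receptor scaling, 1.11 under library size scaling and 4.96 under mitochondrial mRNA scaling). The 4 were the scavenger receptor Cd163 at -0.62, lysozyme Lyz2 at -0.67, the antigen presentation chaperone Cd74 at -0.56 and the mannose receptor Mrc1 at -0.32, and the call of Mrc1 was lost under DESeq2 (adjusted p = 0.0941). Of 12 adipocyte genes 2 fell, Plin4 (-0.58) and Lpl (-0.50), which coats lipid droplets and hydrolyses blood triglycerides respectively, and muscle expresses both. The median of that list was -0.030 (1.03 under library size scaling and 4.89 under mitochondrial mRNA scaling). Of 9 erythroid genes 1 fell, the globin Hba-a2 at -0.56, of 12 smooth muscle and pericyte genes 1 fell, the kinase Mylk at -0.26, and of 12 Schwann cell genes 1 fell, the myelin protein Mbp at -0.33. The calls of Mylk and Mbp were lost with the 6 libraries alone (adjusted p = 0.108 and 0.077). The medians of these 3 lists were -0.029, -0.042 and 0.054. They were 1.04, 1.03 and 1.12 under library size scaling, and 4.896, 4.895 and 4.995 under mitochondrial mRNA scaling. None of the 8 satellite cell genes passed in edgeR or in DESeq2, and 1 was lower at an unadjusted p under 0.05. The median of the satellite cell list was -0.087 (0.98 under library size scaling and 4.82 under mitochondrial mRNA scaling). Cdh15, a cadherin of satellite cells, which are stem cells, had 327, 352 and 300 counts against 353, 251 and 272 (adjusted p = 0.465).

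Endoplasmic reticulum chaperone and translocon genes were examined because that membrane co-purifies with mitochondria. Their counts measure mRNA and not the membrane itself. Of 27, 8 fell while 19 did not pass, at a median of -0.31 (0.76 under library size scaling and 4.62 under mitochondrial mRNA scaling). The share called lower was 29.6%, beside 4.54% of all genes tested. Hspa5, the main chaperone of the reticulum, had 136, 167 and 133 counts in mitoplasts and 208, 206 and 178 in crude mitochondria, a change of -0.74 ± 0.105 (SE, adjusted p = 2.67e-07). Canx, the lectin chaperone calnexin, had -0.74, and the disulfide isomerase P4hb had -0.62. The 27 genes took 0.0993% ± 0.0020 of nuclear counts in mitoplasts and 0.113% ± 0.0023 in crude mitochondria (SD, n = 3 each). The ranges of these shares did not overlap.

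**Figure D5:**
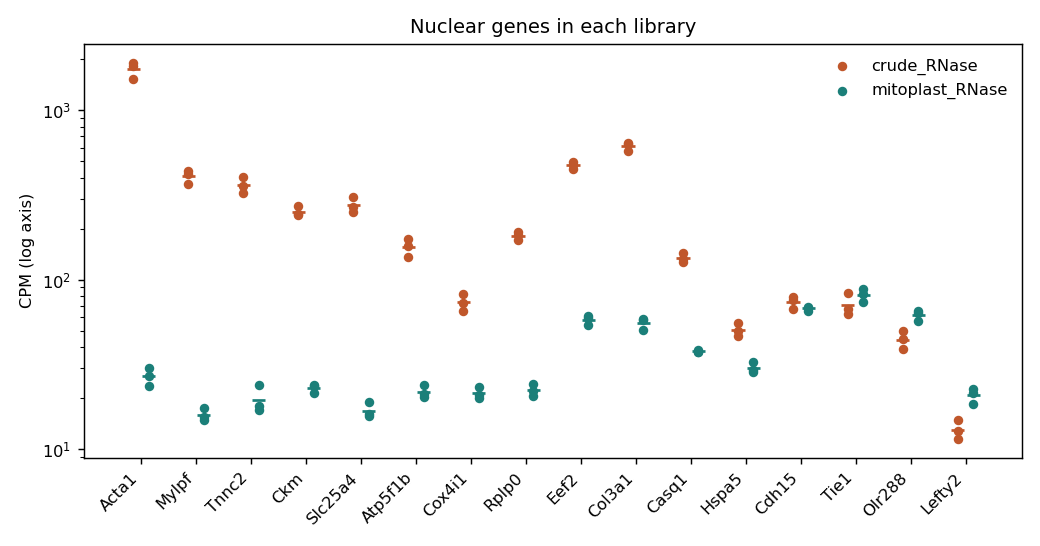
CPM of 16 nuclear genes (log axis) in each library under TMM scaling, with a bar at the mean of 3 libraries. Skeletal actin Acta1 lies at 23.6 to 30.1 CPM in mitoplasts and 1535 to 1901 CPM in crude mitochondria, Cdh15 and Tie1 overlap, and Olr288 and Lefty2 lie slightly higher in mitoplasts.

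Of the 264 genes that were higher in mitoplasts, 30 were so by a log2 change of more than 1. The 8 highest named genes by the naming rule were Lefty2, Atp6v1fnb, Adat2 and the olfactory receptor genes Olr1093, Olr855, Olr869, Olr136 and Olr858, with log2 changes of 0.56 to 0.67. Lefty2, a secreted antagonist of Nodal signalling in the embryo, had 88, 109 and 103 counts in mitoplasts and 57, 43 and 53 in crude mitochondria, a change of 0.67 ± 0.157 (SE, adjusted p = 0.00256). Olr858 had 174, 181 and 149 counts against 105, 91 and 78, a change of 0.58 ± 0.118 (SE, adjusted p = 0.000369). The calls of the other 6 were each lost when at least 1 library was left out. Of 1033 olfactory receptor genes tested (1045 in the table), 14 rose, 1 fell and 1018 did not pass. The share that rose, 1.36%, is near the 0.997% of all genes tested. Their median was 0.10 (1.17 under library size scaling and 5.03 under mitochondrial mRNA scaling), and -0.012 when they were themselves the scaling reference. The highest genes without a name were ENSRNOG00000071057, with 121, 137 and 177 counts against 56, 33 and 32, a change of 1.55, and ENSRNOG00000064897, with 139, 156 and 166 against 50, 74 and 45, a change of 1.15. Separate CPM ranges were a condition of the rule that named both of them and the 8 above, so their separation is no further result.

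Captured mitochondria that kept their outer membrane were set against the same crude libraries, so the values below share their controls. Acta1 had -6.01 in IP_RNase and -6.01 in IP_RNase_ProK, beside -6.02 in mitoplasts. Rplp0 had -3.14 and -3.14, beside -3.03, and Slc25a4 had -4.04 and -4.04, beside -4.02. Mt-co1 had -4.04 in IP_RNase and -5.37 in IP_RNase_ProK, beside -5.28. The mitochondrial share of counts was 3.33% to 10.9% in IP_RNase and 2.06% to 3.36% in IP_RNase_ProK, beside 2.52% to 3.94% in mitoplasts. Against crude mitochondria, 335 genes were higher and 1349 lower in IP_RNase, beside 264 and 1203 in mitoplasts. In mitoplasts against IP_RNase, which were both bead-captured, 6 genes were higher and 35 lower of the 26483 tested.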

How the data were processed

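RNA of 12 mitochondrial preparations was sequenced, and 6 libraries were compared here. Per the labels' protocols, RNA received DNase I on the column and was made into rRNA-depleted libraries (Zymo-Seq RiboFree). Per the submitters' processing notes, FastQC 0.74, cutadapt 4.6, STAR 2.7.11a and HTSeq were used with mRatBN7.2. The annotation release, strand setting and treatment of multiply matching reads are all not given in the sources used here. What the authors deposited is a table of raw read counts per Ensembl gene for 30560 genes. For crude mitochondria the source label names immunoprecipitation, but title and design text were followed.

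Counts were tested with edgeR 4.0.16 (R 4.3.3, quasi-likelihood F test, TMM scaling, 12 libraries in 4 groups, minimum count 10), which kept 26483 genes (86.7%), with Benjamini-Hochberg adjustment and a threshold of 0.05. The common biological coefficient of variation was 0.0644. The SE is the absolute log2 fold change over the square root of F. CPM uses effective library sizes, with TMM factors of 1.21 to 1.22 in mitoplasts and 0.525 to 0.679 in crude mitochondria. Shares were compared by exact permutation tests (SciPy 1.17.1). Gene types came from a RefSeq table of assembly GRCr8, used for names only. The code was tested on simulated data.

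Named genes were the 13 mitochondrial mRNAs, the 2 mitochondrial rRNAs, Rpph1 and Rn7sl1, from each list the 3 members of smallest p that had a mean of at least 50 counts, or fewer where fewer had it, and the 8 highest and 8 lowest called genes with a symbol, such counts and separate ranges, with 2 each of those without a symbol. Some genes that this rule took are not reported here. The members and lists were chosen with earlier results of these data known, and list names were completed once the table was seen. Alternatives were DESeq2 1.42.0, 4 other scalings, no filter, the 6 libraries alone, a replicate block and leaving out each library.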

Additional observations from a re-analysis of the deposited data

How the results depend on the processing

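Beside the 1467 genes called (264 higher, 1203 lower), median-of-ratios size factors gave 1460 calls, no filter on low counts 1454, olfactory receptor scaling 1825 (53 higher), the 6 libraries alone 1166 (153 higher) and DESeq2 1007 (105 higher, 902 lower). Leaving out each library in turn gave 1142 to 2016 calls, 148 to 543 of them higher and 975 to 1473 lower, with the highest counts without crude library 1. Among named genes, the calls of Olr1093, Olr855, Olr869, Olr136, Olr6, Atp6v1fnb, Adat2, Mrpl3, Mrps5, Tufm, Mylk, Mbp, Mrc1, the SNORD115 copy and the RNase P RNA copy were lost when at least 1 single library was left out, and Cav1, Tie1, Rgs5 and Sdc4 passed when at least 1 was left out. With a replicate block the fit gave 1411 calls (244 higher, 1167 lower), and same-numbered libraries did not deviate together (correlations of -0.093, 0.10 and -0.034 over 18763 genes), so the numbers were not taken as pairs. Library size scaling gave 25402 calls (25223 higher, 179 lower) and mitochondrial mRNA scaling 26465 (26456 higher, 9 lower), since both move the zero of every gene. The mitochondrial share differed by -50.4 to -44.0 percentage points without single libraries, and by -47.4 points with nuclear rRNA and SRP RNA left out of the total. The log2 ratio of mitochondrial rRNA and tRNA to mRNA turned to 0.061 without mitoplast library 3 and to 0.044 without crude library 3, with a range over single libraries of -0.29 to 0.061. Without Mt-co1 in the pool the share differences of Mt-nd1 and Mt-nd4 turned to -0.078 and -0.15 percentage points, that of Mt-cyb turned to 0.042 without crude library 1, and that of Mt-co2 to 0.11 without mitoplast library 3, and all 4 had overlapping ranges. Over single libraries left out, the difference of Mt-co2 ranged from -0.14 to 0.11 points and that of Mt-cyb from -0.51 to 0.042 points. The cause of these changes was not tested. Called or named lower genes that turned positive under library size scaling had log2 changes of Ndufv2 0.0098, Trdn 0.093, Hrc 0.12, Timm23 0.20, Vdac2 0.27, Ndufb8 0.28, Olr6 0.32, Hspa5 0.33, Canx 0.34, Mrps25 0.37, Lyz2 0.40, Hspa9 0.44, P4hb 0.45, Cd163 0.45, Plin4 0.49, Hba-a2 0.51, Cd74 0.51, Tufm 0.57 and Lpl 0.57. The others there were Mrpl3 0.60, Rgs5 0.61, Mrps5 0.64, Lrpprc 0.66, Sdc4 0.68, Mbp 0.74, Tagln 0.74, Mrc1 0.76, Cav1 0.79, Mylk 0.81, Gfm1 0.88, Cdh15 0.93 and Slc4a1 0.97. Under mitochondrial mRNA scaling those that turned were Rpph1 0.0066, Mt-nd4 0.044, Mt-nd1 0.053, ENSRNOG00000030478 0.091, Mt-nd5 0.12, Mt-atp6 0.17, Mt-nd2 0.25, Mylpf 0.28, Mt-nd6 0.50, Myl1 0.65, Mt-nd4l 0.69, Tnnc2 0.73, Slc25a4 0.93, Tnni2 1.36, Tcap 1.42, Mt-atp8 1.43, Col3a1 1.48, Ckm 1.5, Rplp0 1.91 and Pgam2 1.91. Next came Eef2 1.92, Rpl5 1.98, Atp5f1b 2.13, Rpl19 2.15, the Y RNA copy 2.21, Sparc 2.32, Gsn 2.41, Pygm 2.47, Pabpc1 2.93, Atp5f1a 2.95, Cox6c 3.03, Uqcrfs1 3.06, Casq1 3.12, Cox4i1 3.16, Ttn 3.32, Atp5pb 3.34, Eef1g 3.44, Pdk4 3.46, Ckmt2 3.51 and ENSRNOG00000032609 3.54. They went on with Ndufa6 3.61, Pdha1 3.79, Fabp4 3.80, Chchd3 3.83, Ndufv2 3.89, Hrc 3.98, Trdn 3.99, Timm23 4.07, Vdac2 4.13, Ndufb8 4.15, Olr6 4.16, Hspa5 4.2, Canx 4.23, Mrps25 4.23, Lyz2 4.25, P4hb 4.32, Hspa9 4.33, Cd163 4.33 and Plin4 4.37. The last were Cd74 4.38, Hba-a2 4.38, Lpl 4.43, Tufm 4.44, Mrpl3 4.46, Rgs5 4.49, Mrps5 4.52, Lrpprc 4.54, Sdc4 4.54, Mbp 4.6, Tagln 4.61, Mrc1 4.64, Cav1 4.65, Mylk 4.68, Gfm1 4.75, Cdh15 4.78 and Slc4a1 4.84. Depth limits the lists of small noncoding RNAs, of which most members had too few counts to be tested.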

Other observations

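MicroRNA hairpin genes, whose transcripts are cut into microRNAs, formed a list that was added after the table was seen. Of 420 such genes, 185 had enough counts to be tested, and 0 passed in edgeR. In DESeq2 0 passed as well, but 147 of them received no adjusted p. At an unadjusted p under 0.05, 8 were higher and 5 lower in mitoplasts. Their median log2 fold change was 0.11 (-0.012 under olfactory receptor scaling, 1.16 under library size scaling and 4.97 under mitochondrial mRNA scaling). They took 0.0818% ± 0.00052 of nuclear counts in mitoplasts and 0.0738% ± 0.0026 in crude mitochondria (SD, n = 3 each). Total RNA libraries count precursors and host transcripts at these genes, and mature microRNAs were not measured.

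The 100 most counted nuclear genes of each library took 5.48%, 5.67% and 5.40% of nuclear counts in mitoplasts and 9.62%, 12.5% and 10.8% in crude mitochondria. Without nuclear rRNA and SRP RNA genes, an alternative chosen after seeing the data, the shares were 5.47%, 5.66% and 5.38% against 5.94%, 8.08% and 6.31%, so these genes carried most of the difference in crude libraries 1 and 3. The number of protein-coding genes above the 99th percentile of olfactory receptor genes was 5362, 5242 and 5542 in mitoplasts and 7319, 6251 and 6379 in crude mitochondria.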
